A study of Mus musculus with 16 samples.

Results

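A-MYB, the transcription factor encoded by Mybl1, was expressed in J1 mouse embryonic stem (ES) cells in which a doxycycline-induced activator was also switched on, and the response was read across all genes by RNA-seq. The comparison holds 4 of the 16 samples of the series: 2 libraries of cells that received doxycycline (Dox) and A-MYB and 2 of cells that received Dox alone. Of 23420 genes in the count tables, 14664 had enough counts to be tested.

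All cells were J1 ES cells of the 129S4/SvJae background at passage 36, kept without feeder cells in serum medium with 2i and LIF, and harvested on day 3. Every group carried the same transgenes: dCas9-VPR, a cutting-dead Cas9 joined to activation domains, and a guide RNA against RLTR10B2, a family of endogenous retrovirus long terminal repeats, with a DsRed marker. The Dox cells received doxycycline at 1 µg/ml, and the Dox + A-MYB cells received the same dose and expressed A-MYB. Another pair of groups with 2 libraries each, untreated cells and cells with A-MYB without Dox, carried the same transgenes and was used for the A-MYB effect where the activator was not induced. Both treatments were started on the first and second day of culture. The sources used here do not give whether the line is a single clone or how A-MYB was delivered. A group given Dox but lacking dCas9-VPR, or one with a different guide, was not analysed here. RNA came from single wells of a multiwell plate. Nothing else states that replicates were separate cultures, so p-values measure the spread between these wells, which may be technical.

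In the testis A-MYB is made in pachytene spermatocytes, where it turns on genes of meiosis, of piRNA production and of the later spermatid programme. It belongs to the MYB family of DNA-binding proteins. Its relative B-MYB works with the MuvB complex on genes of the G2 and M phases of the cell cycle and is the family member known from dividing ES cells. The naive ES cell state rests on factors such as Nanog, Klf2 and Tfcp2l1, and ES cells are known for a high rate of glycolysis.

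The 4 libraries held 29735161 to 33771487 gene counts, and all 8 held 26995317 to 33771487. On the first principal component the Dox + A-MYB libraries were separate from the 6 others, at 80.7 and 80.9 against -48.4 to -9.73. They also had more genes with a count, 17602 and 17554 against 16512 and 16377 in the Dox libraries, and a larger share of reads assigned to no gene, 9.43% and 8.80% against 7.45% and 7.83%. Their part in the results was not tested. Summed over 8 ES cell markers, the level went from 7127 and 7165 CPM (gene counts scaled to a common library size) with Dox to 4636 and 5034 CPM with Dox and A-MYB, and no marker was at 0. In bulk RNA, fewer cells of a type and less RNA per cell cannot be told apart. Spermatocyte markers (6 genes) summed to 12.8 and 11.4 CPM against 32.3 and 33.7 CPM, with 1 of the 6, Spo11, at 0 in both Dox libraries. All 5 spermatid markers were at 0 in all 4 libraries. The 6 fibroblast markers summed to 0.878 and 0.619 CPM against 2.16 and 1.6 CPM, with 4 of the 6 at 0 in both Dox libraries.

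Mybl1 itself, at chr1:9667407-9700439 (mm10), measured 11 and 10.2 CPM in the Dox libraries and 19.9 and 16.6 CPM in the Dox + A-MYB libraries. Both A-MYB libraries lay above both others, as for 38.7% of all tested genes, and the log2 fold change was 0.79 (SE 0.13, adjusted p = 2.31e-05, edgeR). Without Dox the rise was larger, from 8.38 and 6.92 CPM to 22.0 and 17.8 CPM, a log2 fold change of 1.38. The difference of both effects passed, at -0.59 (adjusted p = 0.0183, edgeR). The counts do not separate transcripts of the cells' own gene from those of a construct.

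With A-MYB in Dox-treated cells, 3935 genes were higher, which is 26.8% of those tested, and 4161 were lower, 28.4%, at an adjusted p under 0.05 (edgeR's quasi-likelihood test with Benjamini-Hochberg adjustment over all tested genes). Rises were the larger changes: 1638 genes (11.2%) were at least 2-fold higher and 380 (2.59%) at least 2-fold lower. The median log2 fold change over all tested genes was 0.01. The balance of both directions depended on the scaling. TMM, used here, sets the typical gene to no change, whereas scaling to total counts alone moved the median by 0.19 and gave 5804 higher and 2367 lower genes. Genes that rose then made up 71.0% of those called, against 48.6% under TMM. Changes below are therefore relative to the typical gene, and for this comparison the counts of each gene list are given under both scalings. List counts under TMM are to be read against 26.8% higher and 28.4% lower over all genes. Those under total counts are to be read against 5804 and 2367 of 14664 genes. Shares by level, gene type or H3K27ac region are given under TMM only. So are list counts for the effect without Dox and for the difference of both effects. By CPM under the same TMM scaling, both Dox + A-MYB libraries lay above both Dox libraries for 38.7% of tested genes and below them for 38.4%.

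**Figure D1:**
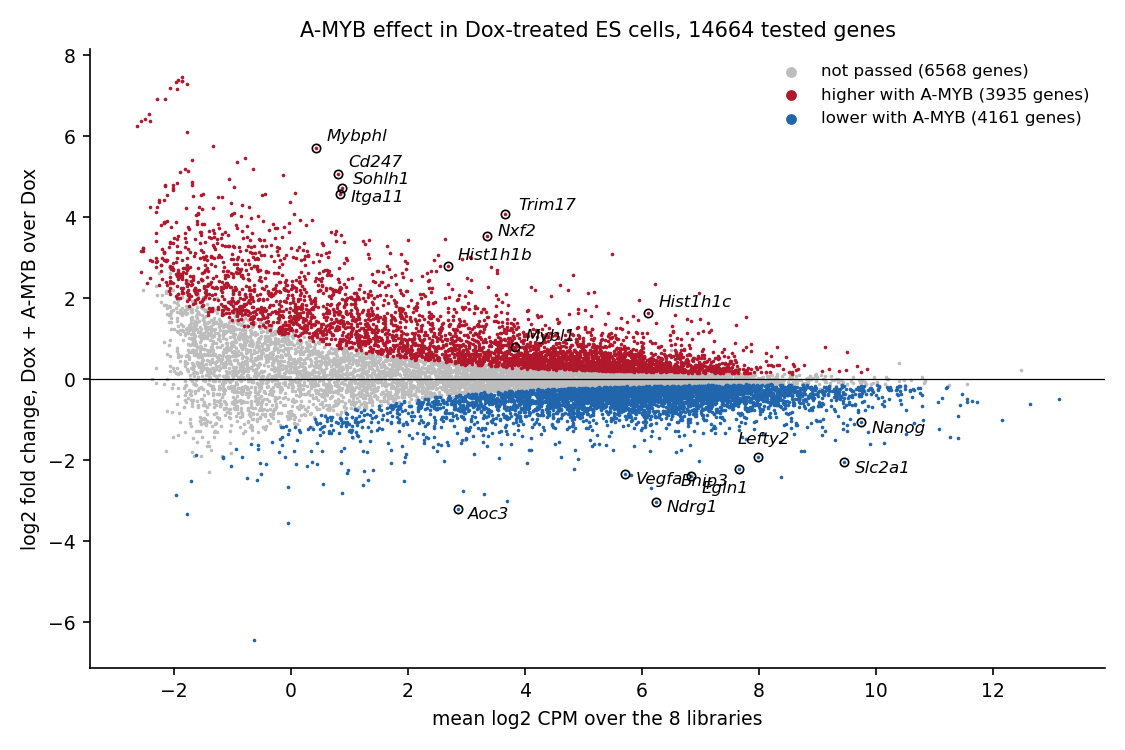
Log2 fold change of Dox + A-MYB over Dox cells (vertical) against the mean log2 CPM over the 8 libraries (horizontal) for 14664 tested genes; each point is a gene, red for genes that were higher, blue for lower and grey for not passed at an adjusted p under 0.05. Trim17, Nxf2, Sohlh1 and Cd247 stand among the largest rises, while Ndrg1, Egln1, Slc2a1 and Bnip3 fell at higher levels; the fitted folds at the far left rest on groups with few or 0 counts.

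The 15 largest rises were taken from genes past the threshold with a mean of at least 1 CPM (log2 CPM of 0). Groups that did not overlap were also required, so separation of the libraries was fixed by this choice. These rises were in genes that the Dox cells expressed little. Trim17, a ubiquitin ligase at chr11:58954671-58973075 (mm10), measured 2.88 and 2.03 CPM in the Dox libraries and 39.0 and 45 CPM with A-MYB, a log2 fold change of 4.09 (SE 0.20, adjusted p = 3.49e-12, edgeR). Nxf2, an X-linked member of the mRNA export factor family known from male germ cells, rose from 2.73 and 2.51 CPM to 30.8 and 29.8 CPM, a log2 fold change of 3.53 (SE 0.15). Both genes were picked by the size of the change, so a wide gap between the A-MYB and the Dox libraries was part of the choice. Sohlh1, a helix-loop-helix factor of early germ cells, measured 0.212 and 0.241 CPM and then 6.13 and 5.99 CPM, a log2 fold change of 4.72 (SE 0.43). Hist1h2aa, a testis histone H2A, stood at 0.121 and 0.275 CPM and then at 2.83 and 3.23 CPM, a log2 fold change of 3.94 (SE 0.57).

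The other genes of largest rise have varied roles. Mybphl, a myosin-binding protein of heart muscle, had the largest log2 fold change, 5.72 (SE 0.58), from 0.0909 and 0.0687 CPM to 4.70 and 4.21 CPM. Cd247, a signalling chain of T cell receptors, rose by a log2 fold change of 5.08 (SE 0.43), from 0.151 and 0.172 CPM to 5.67 and 5.52 CPM. Itga11, a collagen-binding integrin, measured 0.151 and 0.344 CPM and then 5.20 and 6.65 CPM, a log2 fold change of 4.59 (SE 0.52). Their standard errors are wide because the Dox libraries held few counts. The remaining 8 were Tmem202, Cplx3, Gucy2g, Entpd1, Rcsd1, Cdhr2, Trim72 and Alox5, with log2 fold changes from 3.57 to 4.61. They include a complexin of synapses (Cplx3), an enzyme that breaks down extracellular ATP (Entpd1), a muscle membrane repair protein (Trim72) and the lipoxygenase that starts leukotriene synthesis (Alox5).

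The 15 largest falls, under the same filter, started from a wider range of levels. Ndrg1, a stress and hypoxia responsive gene, measured 70.0 and 77.1 CPM with Dox and 7.89 and 10.1 CPM with Dox and A-MYB, a log2 fold change of -3.03 (SE 0.10, adjusted p = 1.08e-17, edgeR). Aoc3, an amine oxidase, had the largest fall, -3.21 (SE 0.22), from 8.33 and 8.04 CPM to 0.613 and 1.16 CPM. A2m, a protease inhibitor of blood plasma, stood at 61.9 and 60.1 CPM and then at 8.65 and 10.1 CPM, a log2 fold change of -2.70 (SE 0.09). Groups that did not overlap were a condition of the choice here too. Grin1, a subunit of the NMDA receptor, measured 80.6 and 80.7 CPM and then 16.4 and 14.7 CPM, a log2 fold change of -2.37 (SE 0.08). Loxl2, a cross-linking enzyme of the matrix, changed by -3.02 (SE 0.23), and Ier3, an immediate early gene, by -2.84 (SE 0.17). Of the 15, Ndrg1 and Vegfa are on the glycolysis and hypoxia list described next. Egln1, Slc16a3, Ppp1r3g, Cdc42ep2, Sfrp5, Fam183b, Nxph4 and Fam184b made up the rest, with log2 fold changes from -2.82 to -2.39.

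Of the 38 gene lists, the glycolysis and hypoxia genes had the lowest median. Of 24 listed genes, all tested, 22 were lower and none higher, with a median log2 fold change of -1.41 against 0.01 over all genes, and the count of 22 was the same under every scaling, tool, filter and left-out library tried. Slc2a1, the main glucose importer, measured 807 and 818 CPM in the Dox libraries and 190.1 and 202 CPM with A-MYB, a log2 fold change of -2.05 (SE 0.06, adjusted p = 5.26e-19, edgeR). Hk2, a hexokinase that takes the first step of glycolysis, stood at 465 and 473 CPM and then at 141 and 134 CPM, a log2 fold change of -1.77 (SE 0.06). Pfkp, a phosphofructokinase, fell from 445 and 456 CPM to 128 and 134 CPM, a log2 fold change of -1.78 (SE 0.06). In all 3 the A-MYB libraries were at well under the Dox level and close to each other.

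The lower part of the pathway moved the same way. Tpi1 stood at -1.58, Aldoa at -1.44, Pgk1 at -1.35, Gapdh at -1.17, Pkm at -1.0 and Ldha, which turns pyruvate into lactate, at -1.46, all as log2 fold changes that passed. Pdk1, the kinase that keeps pyruvate out of the mitochondrion, had a log2 fold change of -1.33. Hypoxia genes of the list fell too. Bnip3, a factor for the removal of mitochondria, measured 208 and 194 CPM and then 40.7 and 45.7 CPM, a log2 fold change of -2.22 (SE 0.07). For Vegfa, a blood vessel growth factor, the values were 54.8 and 60.2 CPM and 11.1 and 11.7 CPM, a log2 fold change of -2.33 (SE 0.11). The only members of the list that did not pass were Adm, at -0.95, and Car9, at 0.55 and under 1 CPM in every library. Eno1, at -1.80, was counted at only 2.3 and 2.75 CPM in the Dox libraries, and its value is uncertain because this gene has near-identical copies. Among the 15 largest falls, a pair of genes outside the list have related roles. Slc16a3, which exports lactate, measured 368 and 373 CPM and then 59.6 and 78.8 CPM, a log2 fold change of -2.42 (SE 0.10). Egln1, the enzyme that marks the hypoxia factor HIF for decay, went from 127 and 127 CPM to 23.1 and 25.2 CPM, a log2 fold change of -2.39 (SE 0.07).

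**Figure D2:**
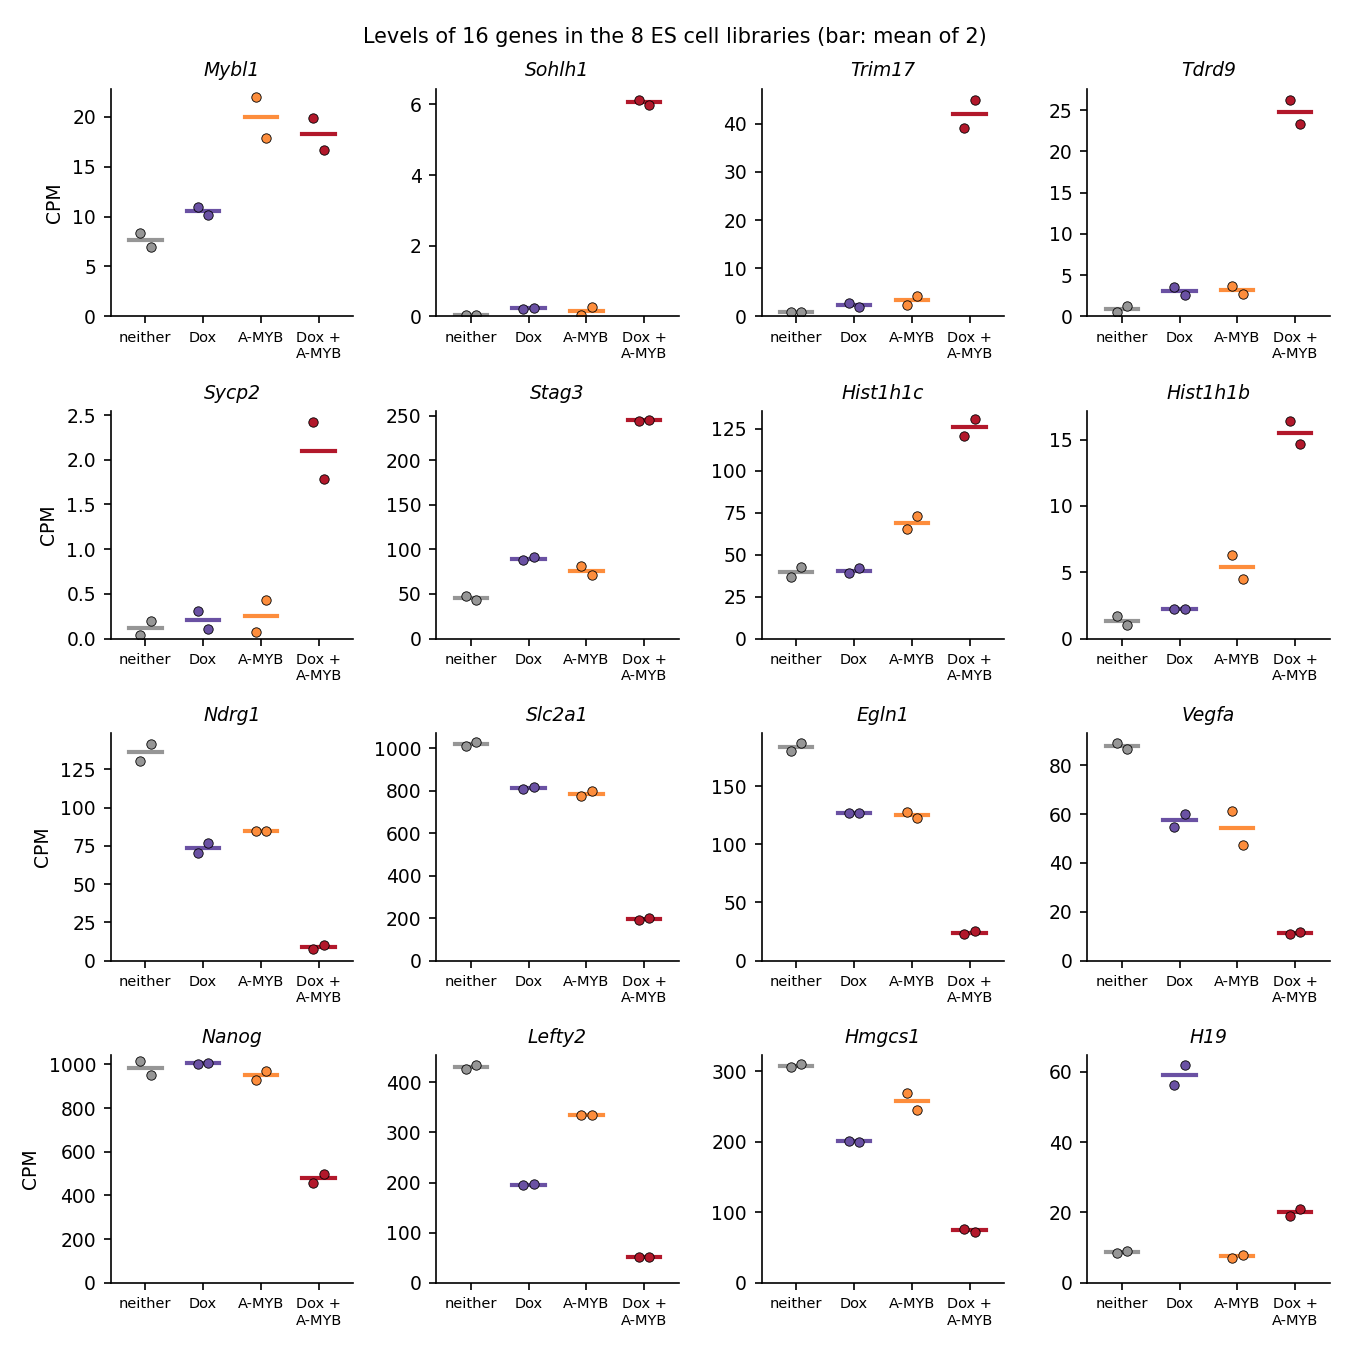
Levels in CPM (vertical, linear axes that start at 0) of 16 genes in the 8 ES cell libraries by group: neither treatment, Dox, A-MYB, and Dox with A-MYB; each point is a library and each bar the mean of 2. Slc2a1 stood at 190 to 202 CPM in the Dox + A-MYB libraries and at 807 and 818 CPM in the Dox libraries, and Trim17 at 39.0 and 45 CPM against 2.88 and 2.03 CPM.

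Promoter sequence is shown for 5 of these genes, Egln1 and Slc16a3 from outside the list included, because HIF binds a short core, ACGTG, that can be searched for. Each run below is the last 150 bases before the start that RefSeq gives for GRCm38.p6, 5′ to 3′ on the gene's strand, with ACGTG or its reverse complement CACGT in capitals, and the genes were chosen after their values were seen.
Slc2a1 (chr4:119108595-119108744, plus strand): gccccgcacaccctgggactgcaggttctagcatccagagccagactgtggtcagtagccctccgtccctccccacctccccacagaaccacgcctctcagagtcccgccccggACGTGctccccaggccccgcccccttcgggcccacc
Bnip3 (chr7:138909507-138909656, minus strand): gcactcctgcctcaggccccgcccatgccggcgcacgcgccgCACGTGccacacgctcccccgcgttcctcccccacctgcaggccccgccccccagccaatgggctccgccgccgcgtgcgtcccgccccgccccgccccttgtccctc
Egln1 (chr8:124949255-124949404, minus strand): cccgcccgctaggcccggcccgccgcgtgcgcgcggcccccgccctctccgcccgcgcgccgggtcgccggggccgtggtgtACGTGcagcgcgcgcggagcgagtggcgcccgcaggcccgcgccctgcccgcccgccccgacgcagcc
Slc16a3 (chr11:120948917-120949066, plus strand): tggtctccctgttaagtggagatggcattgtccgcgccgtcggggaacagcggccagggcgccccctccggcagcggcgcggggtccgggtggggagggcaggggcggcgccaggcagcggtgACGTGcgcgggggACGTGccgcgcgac
Pgk1 (chrX:106186950-106187099, plus strand): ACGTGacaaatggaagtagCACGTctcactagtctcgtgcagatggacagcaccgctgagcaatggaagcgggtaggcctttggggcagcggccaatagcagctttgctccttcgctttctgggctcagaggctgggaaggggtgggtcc
In Bnip3 the capitals are CACGTG, which is both forms overlapping. By the gene spans used elsewhere here, the Slc16a3 run lies inside the gene. Over the 27025 promoters of the table, 16.6% hold the core within 250 bases before the start, on either strand. The same stretch before Pfkp and Tpi1, which also fell, holds none. A match describes letters only.

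Cholesterol synthesis genes fell as a group, 16 of 20 and none higher, with a median log2 fold change of -0.81. Hmgcs1, an early enzyme of the pathway, stood at 201 and 199.9 CPM with Dox and at 76.7 and 72.6 CPM with Dox and A-MYB, a log2 fold change of -1.43 (SE 0.06, adjusted p = 1.29e-15, edgeR). Both A-MYB libraries were below both Dox libraries, as for 38.4% of all tested genes. Sqle, a later enzyme, had a log2 fold change of -1.09 and Insig1, a sterol sensor partner, of -1.28. Under total counts 13 of 20 were lower and 1 was higher.

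Naive pluripotency genes were mostly lower: 17 of 22 fell and 2 rose, with a median log2 fold change of -0.74, and 16 fell and 3 rose under total counts. Nanog, a core factor of the naive state, measured 1001 and 1009 CPM with Dox and 459 and 499 CPM with Dox and A-MYB, a log2 fold change of -1.07 (SE 0.06, adjusted p = 7.75e-14, edgeR). Tdgf1, a co-receptor for Nodal, went from 716 and 698 CPM to 240.0 and 256 CPM, a log2 fold change of -1.51 (SE 0.06). Klf2 stood at 377 and 392 CPM and then at 178 and 174 CPM, a log2 fold change of -1.13 (SE 0.06). No library of one group reached the other group's range in these 3 genes, and 38.4% of all tested genes were lower in this way. Fgf4, the growth factor of the inner cell mass, had a log2 fold change of -1.23, Prdm14 of -1.20, Tfcp2l1 of -0.99, Sox2 of -0.83 and Klf4 of -0.85. Pou5f1, the factor OCT4, was at -0.18 and did not pass (adjusted p = 0.0864, edgeR). Dppa3 (0.56) and Dppa4 (0.17) were the genes that rose.

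Signalling lists differed in direction. In the Nodal and Lefty list, which shares Tdgf1, Lefty1 and Lefty2 with the naive list, 12 of 14 tested genes were lower and 1, the receptor Acvr2a, was higher (0.43), or 12 and 2 under total counts. Lefty2, an inhibitor of Nodal, measured 195 and 197 CPM and then 52.3 and 51.2 CPM, a log2 fold change of -1.92 (SE 0.06). Nodal itself was at -0.55 and the signal carrier Smad3 at -1.10, both past the test. Of 15 tested Wnt antagonists and targets 9 fell, among them Ccnd1 (-1.15), Sfrp1 (-1.14) and Axin2 (-0.68), and the ligands Wnt8a (2.19) and Wnt3 (2.17) rose, with 9 lower and 3 higher under total counts. FGF and MAPK genes divided evenly, 6 higher and 6 lower of 14 (6 and 4 under total counts): the receptor Fgfr2 rose from 2.73 and 2.99 CPM to 14.5 and 12.7 CPM and the early gene Egr1 from 2.18 and 1.48 CPM to 7.39 and 7.0 CPM, whereas Etv5 fell, with a log2 fold change of -0.77.

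Genes of other lineages showed no single direction. Endoderm genes had 3 higher and 1 lower of 10 tested, where 26.8% of all genes were higher. Under total counts 6 were higher and 1 lower, where 5804 of all 14664 genes were higher. Dab2, an adaptor protein, measured 2.27 and 2.78 CPM and then 9.17 and 7.33 CPM, and the laminin Lama1 was lower (-0.41). Eomes, a factor of early mesoderm and trophoblast, fell, with a log2 fold change of -1.34, while Hand1 rose (2.59) from under 0.5 CPM in the Dox libraries. Of 18 tested genes of the 2-cell-like state 1 rose and 1 fell, or 3 and 1 under total counts, and Zscan4d, the marker named for that state, measured 11.1 and 9.73 CPM and then 12.9 and 12.8 CPM (adjusted p = 0.0672, edgeR). Imprinted genes divided as 6 higher and 5 lower of 19, shares near the 26.8% and 28.4% of all genes, or 8 and 4 under total counts. H19, a maternally expressed RNA, stood at 56.3 and 61.9 CPM with Dox, at 18.9 and 21.1 CPM with Dox and A-MYB, and at 8.35 and 9.09 CPM in untreated cells. Cdkn1c, a cell cycle inhibitor, rose from 1.03 and 0.825 CPM to 3.51 and 3.68 CPM, a log2 fold change of 1.94.

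**Figure D3:**
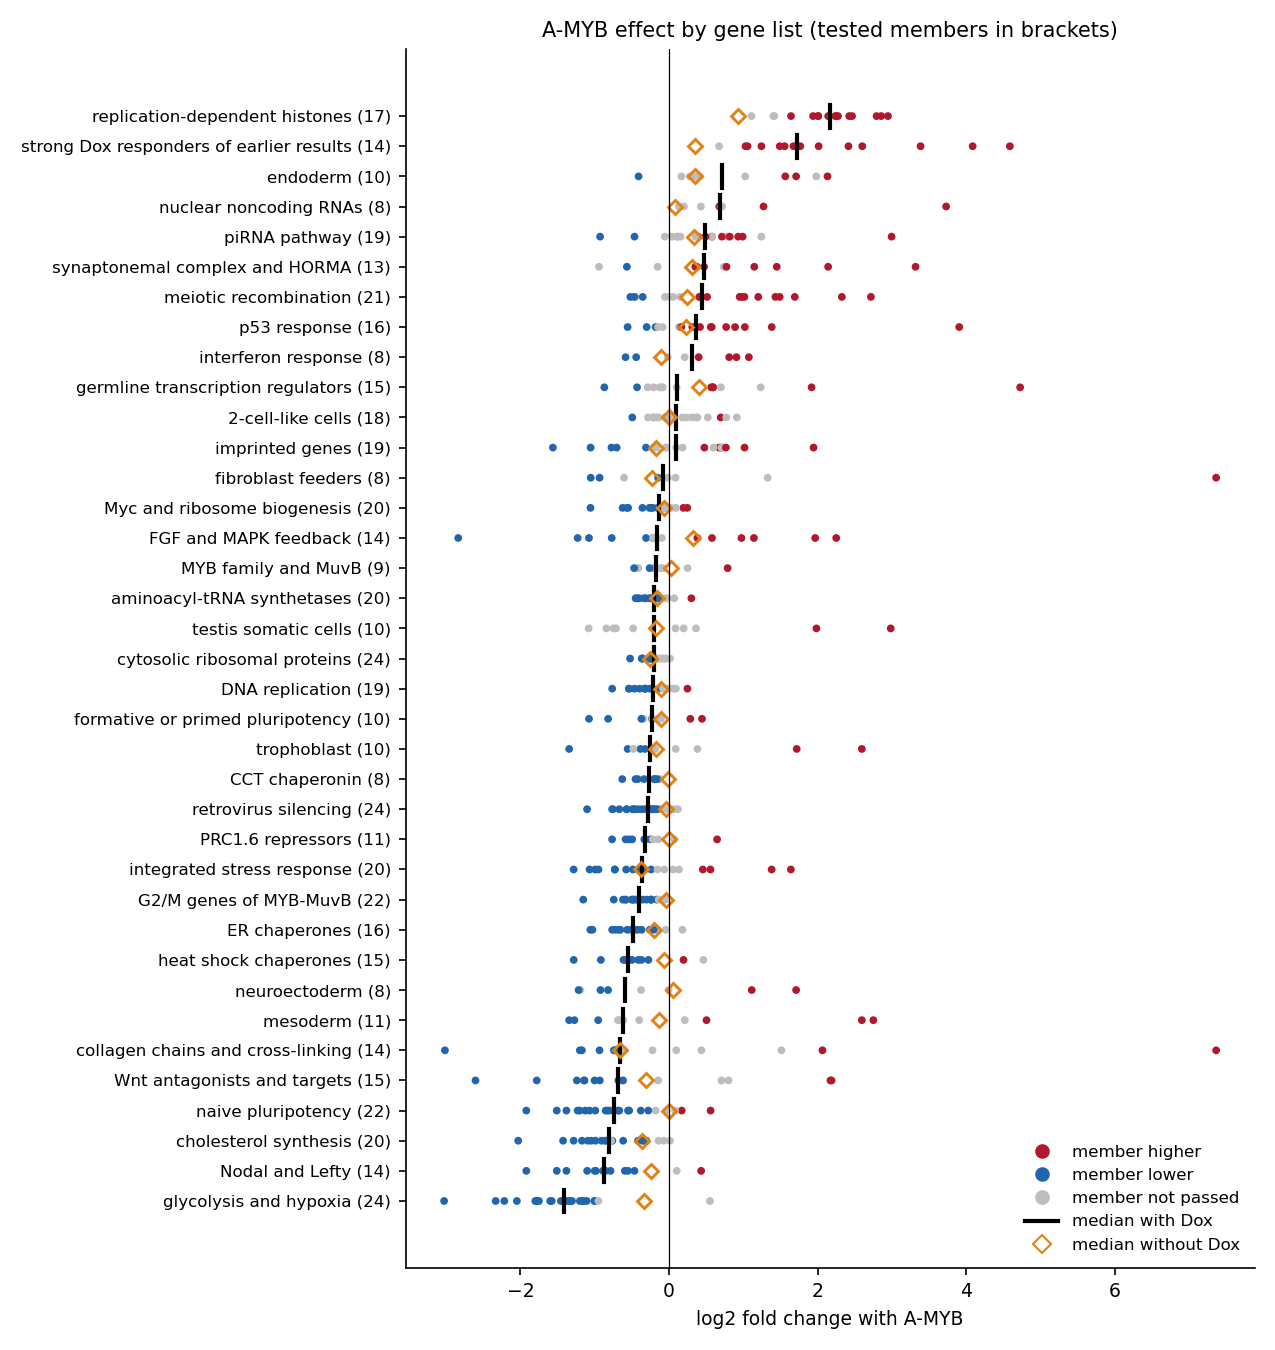
Log2 fold change with A-MYB (horizontal) for each tested member of the 37 gene lists with at least 8 tested genes (rows, number tested in brackets); points show the effect in Dox cells, black bars its median and open diamonds the median without Dox. Glycolysis and hypoxia genes lie lowest (median -1.41) and replication-dependent histones highest (median 2.16).

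Germ cell genes, the programme A-MYB drives in the testis, rose in part. Of 13 tested genes of the synaptonemal complex and its HORMA partners, 9 were higher and 1 lower (median log2 fold change 0.47), or 10 and 1 under total counts. Over all tested genes 26.8% were higher and 28.4% lower under TMM. Stag3, the meiotic cohesin subunit, measured 87.7 and 91.8 CPM with Dox and 244 and 245 CPM with Dox and A-MYB, a log2 fold change of 1.45 (SE 0.07, adjusted p = 8.75e-15, edgeR). Sycp2, a part of the chromosome axis, went from 0.303 and 0.103 CPM to 2.42 and 1.78 CPM, a log2 fold change of 3.32 (SE 0.64). Sycp3, its partner, stood at 5.15 and 3.81 CPM and then at 10.8 and 9.11 CPM, a log2 fold change of 1.15 (SE 0.22). All 3 had both A-MYB libraries above both Dox libraries, as had 38.7% of all tested genes. They were named for their small p, which favours such separation, and Sycp2 was under 1 CPM with Dox. Smc1b, another cohesin subunit, rose by 0.77, and Syce2 was the one that fell (-0.57). Sycp1, the filament that joins paired chromosomes, was at 0.74 and did not pass (adjusted p = 0.0514, edgeR).

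Meiotic recombination genes had 12 of 21 tested higher and 3 lower (median 0.44), against 26.8% and 28.4% of all genes. Msh4, a mismatch repair protein of crossing over, rose from 1.09 and 1.58 CPM to 9.32 and 8.16 CPM, a log2 fold change of 2.72 (SE 0.27). Hfm1, a crossover helicase, measured 1.79 and 1.41 CPM and then 4.56 and 4.09 CPM, a log2 fold change of 1.43 (SE 0.29). Prdm9, which places the breaks, had a log2 fold change of 1.01, Dmc1, the strand exchange protein, of 0.95, and Spo11, which makes the breaks, was too low to test. The 3 that fell were Mnd1 (-0.52), Brca2 (-0.47) and Mlh3 (-0.36), of which Mnd1 and Brca2 also act in dividing somatic cells. Under total counts 15 were higher and 1 lower.

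For the piRNA pathway, 8 of 19 tested genes were higher and 2 lower (median 0.49), against 26.8% and 28.4% of all genes. Under total counts 13 were higher and none lower, against 5804 and 2367 of all 14664 genes. Tdrd9, a helicase of the pathway, had by far the largest change, from 3.57 and 2.61 CPM to 26.3 and 23.3 CPM, a log2 fold change of 2.99 (SE 0.20, adjusted p = 8.45e-11, edgeR). Mov10l1, which loads precursors, measured 16.1 and 20.6 CPM and then 32.5 and 32.0 CPM, a log2 fold change of 0.82. Piwil2, one of the PIWI proteins, went from 27 and 27.8 CPM to 40.8 and 41.1 CPM, a log2 fold change of 0.58. Piwil1, the PIWI protein of pachytene cells, was at 0.939 and 1.31 CPM and 1.58 and 2.28 CPM and did not pass (adjusted p = 0.0852, edgeR), and Tdrd7 (-0.93) and Pld6 (-0.47) fell.

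Among 15 tested germline regulators 5 rose and 2 fell, against 26.8% and 28.4% of all genes. The share that rose was near that of all genes, and the share that fell was below it. Under total counts 7 rose and 1 fell, against 5804 and 2367 of all 14664 genes. Taf7l, a testis form of a general transcription factor subunit, rose from 7.03 and 8.52 CPM to 27.2 and 31.4 CPM, a log2 fold change of 1.92 (SE 0.13), and Ythdc2, an RNA helicase of meiotic entry, by 0.57. Rfx2, a factor of spermatids, fell, with a log2 fold change of -0.87. Dazl, an RNA-binding protein of germ cells, stood at 49.2 and 44.9 CPM and 47.0 and 39.1 CPM, which did not pass (adjusted p = 0.239, edgeR). Of 20 spermatid genes only 6 had enough counts for a test, and 1 was higher and 2 lower, or 1 and none under total counts. The other 14 include the protamines Prm1 and Prm2 and the transition proteins Tnp1 and Tnp2, which were at 0 in all 4 libraries.

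Sequence before a RefSeq start is printed for 4 of the meiotic and piRNA genes because MYB proteins bind the core AACNG, in which N is any base. The runs are the last 150 bases before the RefSeq start in GRCm38.p6, 5′ to 3′ on the gene's strand, with AACNG or its reverse complement CNGTT in capitals, and the genes were chosen after their values were seen.
Tdrd9 (chr12:111971409-111971558, plus strand): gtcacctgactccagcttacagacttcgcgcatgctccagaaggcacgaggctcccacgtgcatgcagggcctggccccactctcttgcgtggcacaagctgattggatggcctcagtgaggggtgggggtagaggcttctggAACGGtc
Stag3 (chr5:138280359-138280508, plus strand): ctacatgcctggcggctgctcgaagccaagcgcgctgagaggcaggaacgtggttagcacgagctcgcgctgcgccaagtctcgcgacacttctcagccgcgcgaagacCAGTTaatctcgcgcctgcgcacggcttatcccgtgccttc
Sycp2 (chr2:178407659-178407808, minus strand): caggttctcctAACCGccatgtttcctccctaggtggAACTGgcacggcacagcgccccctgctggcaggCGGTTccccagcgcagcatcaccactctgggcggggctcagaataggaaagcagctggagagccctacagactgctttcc
Msh4 (chr3:153904892-153905041, minus strand): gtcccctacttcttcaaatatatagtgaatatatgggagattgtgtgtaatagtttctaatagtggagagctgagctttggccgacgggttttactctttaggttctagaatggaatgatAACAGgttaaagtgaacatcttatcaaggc
This core is common: 74.1% of the 27025 promoters hold it on either strand within 250 bases before the start. No match lies in that stretch before Cd247, Itga11, Cplx3 or Cdhr2, which are among the 15 largest rises. By the gene spans used elsewhere here, the Stag3 and Msh4 runs and the Cd247 stretch lie inside the gene. The Tdrd9 and Sycp2 runs cross the gene's start.

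Replication-dependent histone genes rose as a group, 14 of 17 tested with none lower, or all 17 under total counts, and the median log2 fold change was 2.16. Hist1h1c, a linker histone, measured 39.0 and 41.7 CPM with Dox and 121 and 131 CPM with Dox and A-MYB, a log2 fold change of 1.64 (SE 0.08, adjusted p = 2.35e-14, edgeR). Hist1h2bc, a core histone, went from 15.9 and 16.3 CPM to 70.3 and 73.4 CPM, a log2 fold change of 2.16 (SE 0.09). Hist1h1b stood at 2.24 and 2.23 CPM and then at 16.4 and 14.7 CPM, a log2 fold change of 2.79 (SE 0.20). These messages normally end without a poly(A) tail, and the libraries were made from poly(A) RNA, so the counts follow the tailed part of them. Several have near-identical copies, and single values are uncertain for that reason. In the same cells the genes of DNA replication were lower in 11 and higher in 1 of 19, with Rrm2 at -0.54, Pcna at -0.47 and Ccne1 at -0.77; under total counts 6 were higher and 5 lower.

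The G2 and M genes known as targets of MYB with MuvB were not raised: 18 of 22 were lower, none higher, and the median log2 fold change was -0.40 (13 lower and none higher under total counts). Kif23, a kinesin of cytokinesis, measured 220.2 and 222 CPM and then 101 and 97.5 CPM, a log2 fold change of -1.16 (SE 0.06, adjusted p = 2.60e-14, edgeR). Cdk1, the mitotic kinase, stood at 272 and 281 CPM and then at 157 and 173 CPM, a log2 fold change of -0.74 (SE 0.06). Ccnb1 had a log2 fold change of -0.58 and Foxm1, the forkhead factor that acts on the same genes, of -0.47. Mybl2, which encodes B-MYB, was at -0.20 and past the test (adjusted p = 0.00343, edgeR), and at -0.0047 and not passed under total counts, since the shift between the scalings is about as large.

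Chaperone genes were lower. In the heat shock list 13 of 15 fell and 1, the factor Hsf1, rose (0.19), with a median log2 fold change of -0.56, or 11 and 1 under total counts. Hspd1, the mitochondrial chaperonin, measured 773 and 775 CPM and then 319.7 and 316 CPM, a log2 fold change of -1.28 (SE 0.06). Hspa8, the constitutive heat shock protein, went from 2971 and 3026 CPM to 1558 and 1615 CPM, a log2 fold change of -0.92 (SE 0.05). Endoplasmic reticulum chaperones fell in 13 of 16 and rose in none, or 10 and 1 under total counts, among them Pdia6 (-1.06), Hsp90b1 (-1.03) and Hspa5 (-0.77), and the CCT chaperonin in 7 of 8 genes, or 4 of 8 under total counts. In the list of Myc and ribosome biogenesis genes 9 of 20 were lower and 2 higher (median -0.14), but 5 lower and 6 higher under total counts. Mycn, a transcription factor of the Myc family, fell, with a log2 fold change of -1.06, as did the nucleolar proteins Ncl (-0.63) and Npm1 (-0.57). Smaller shifts in the translation machinery depended on the scaling. Cytosolic ribosomal proteins were lower in 16 of 24 and aminoacyl-tRNA synthetases in 15 of 20 under TMM, but both in only 4 under total counts, where 2 and 4 were higher.

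Integrated stress response genes moved both ways, 4 higher and 12 lower of 20 tested, or 5 and 9 under total counts. Of its transcription regulators Nupr1 fell (-1.07) and 3 rose: Ddit3, which encodes CHOP, from 8.39 and 8.42 CPM to 21.4 and 22.3 CPM, a log2 fold change of 1.38 (SE 0.13, adjusted p = 1.43e-09, edgeR), Atf3 by 1.64 and Atf4 by 0.56. The amino acid transporter chain Slc3a2 rose as well (0.45). The 12 members that fell include enzymes of serine and folate metabolism, Shmt2 (-0.95) and Mthfd2 (-0.73), and the transporter Slc7a5 (-0.73). Among p53 response genes, 10 of 16 were higher and 3 lower (median 0.36), or 11 and 1 under total counts. Plk2, a kinase, measured 54.4 and 54.2 CPM and then 141 and 142 CPM, a log2 fold change of 1.38 (SE 0.08). Mdm2, which restrains p53, went from 164 and 166 CPM to 309 and 301 CPM, a log2 fold change of 0.89 (SE 0.06), while Cdkn1a, the cell cycle inhibitor p21, stood at -0.30.

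Genes that silence endogenous retroviruses were lower in 18 of 24 and higher in none (median -0.28), or lower in 11 and higher in 3 under total counts. Over all tested genes 28.4% were lower under TMM. In the group of genes with the highest levels in untreated cells, described below, 63.1% were lower, with a median of -0.25. Tet1, an oxidase of methylated cytosine counted with this list, had the largest change, -1.10. Uhrf1, a factor that keeps DNA methylation, measured 859 and 866 CPM and then 501 and 519 CPM, a log2 fold change of -0.76 (SE 0.05, adjusted p = 1.21e-11, edgeR). Trim28, the corepressor KAP1, went from 2399.5 and 2449.5 CPM to 1645 and 1618 CPM, a log2 fold change of -0.57 (SE 0.06). Of 11 genes of PRC1.6, the Polycomb complex that holds germline genes off in ES cells, 7 were lower, among them Wdr5 (-0.59) and Rnf2 (-0.50), and the DNA-binding subunit E2f6 was higher (0.65). Under total counts 5 of the 11 were lower and 2 higher. The RLTR10B2 repeats themselves were not analysed here.

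A list of 14 genes taken from earlier results of these data as strong responders to Dox is not independent evidence. With A-MYB 13 were higher and none lower under both scalings, with a median log2 fold change of 1.72. Itga11, with the list's largest rise, had not passed for Dox alone (1.67, adjusted p = 0.207, edgeR). Slc13a3, a carboxylate transporter, was at 0 counts in untreated and A-MYB cells, at 4.82 and 4.36 CPM with Dox, and at 20.0 and 17.1 CPM with both, a log2 fold change of 2.01 (SE 0.18) over Dox. Ccl22, a chemokine, stood at 0.606 and 0.550 CPM and then at 5.72 and 6.44 CPM, a log2 fold change of 3.38 (SE 0.36). Stac3 measured 7.21 and 8.18 CPM and then 23.7 and 28.5 CPM, and 0.329 and 0.434 CPM with A-MYB alone. The Dox and A-MYB contrasts share the Dox libraries, so these values are side by side only.

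The share of genes that rose fell with their level in untreated cells. Genes with at least 10 counts in both untreated libraries were ranked by their mean CPM there and divided into 5 equal groups. In the lowest, 0.367 to 3.95 CPM, 33.8% were higher and 5.08% lower, with a median log2 fold change of 0.44, and in the highest, from 96.0 CPM up, 8.67% were higher and 63.1% lower, with a median of -0.25. CPM is not corrected for gene length, and tests have less power at low counts; how far either sets these shares was not tested. The A-MYB effect without Dox, which shares its reference libraries with the ranking, had medians from -0.08 to 0.02 over the same groups. Counts and medians of the gene lists were not adjusted for level. In Dox cells the silencing list (-0.28) and the CCT chaperonin (-0.27) had medians near that of the highest group.

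**Figure D4:**
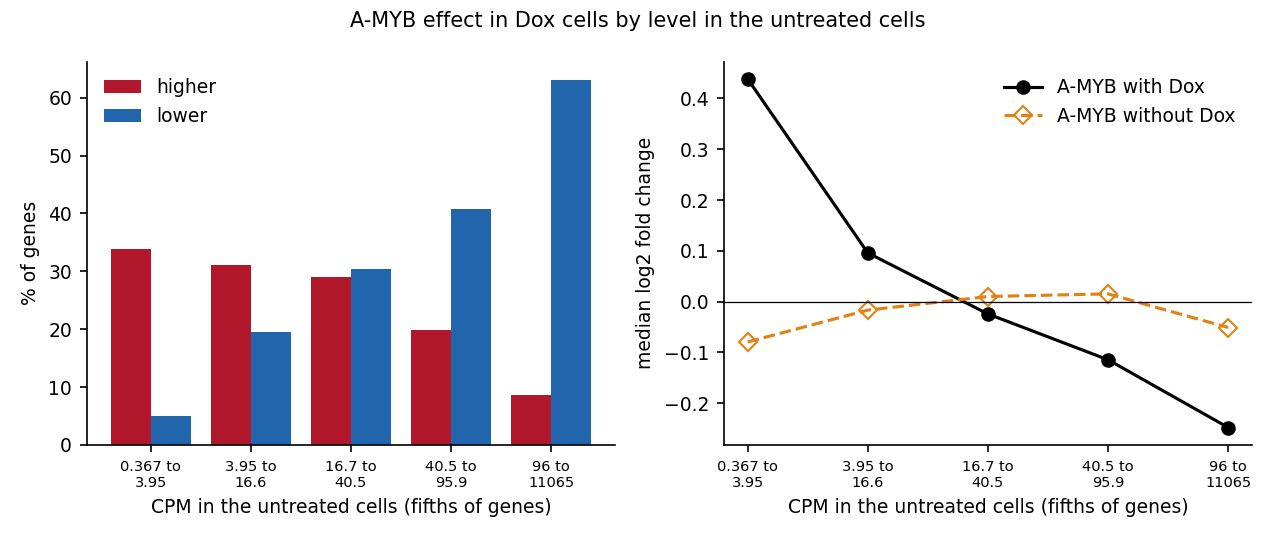
Left, the percentage of genes higher (red) or lower (blue) with A-MYB in Dox cells in 5 groups of genes ranked by CPM in untreated cells; right, the median log2 fold change of the same groups with Dox (filled circles) and without (open diamonds). With Dox the median goes from 0.44 in the lowest group to -0.25 in the highest.

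Genes without counts in the Dox cells gave the same asymmetry. With 0 counts in both Dox libraries, 564 genes had a count in both Dox + A-MYB libraries and 19 had at least 10 in both, against 41 and 1 the other way. The most abundant of the first kind were E130218I03Rik with 18 and 31 counts, AU023762 with 22 and 25, and E330011O21Rik with 21 and 25, which are at least 14.9-fold, 14.3-fold and 14-fold higher if the Dox group is set at a floor of 3 counts. Col3a1, a fibrillar collagen, had 36 and 10 counts, at least 14-fold higher. Dpep1, a dipeptidase, had 24 and 20 counts, at least 13.4-fold higher. In the other direction Stc1, a secreted hormone, had 12 and 10 counts with Dox and 0 with both, at least 8.02-fold lower. Floors cover counting error only. Long noncoding RNAs, 429 of the tested genes, were higher in 43.4% and lower in 5.83%, against 26.5% and 29.3% of protein-coding genes. The median level of the noncoding genes was 0.09 log2 CPM and that of the coding genes 4.56, and this difference was not adjusted for.

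A-MYB without Dox changed fewer genes, 2856 higher (19.5%) and 2230 lower (15.2%), of which 345 (2.35%) and 106 (0.723%) by at least 2-fold. Dox without A-MYB gave 2626 higher (17.9%) and 2091 lower (14.3%). The A-MYB effect without Dox shares no library with the one in Dox cells. Its counts were lower with a library left out: 1712 to 2515 higher and 1303 to 1874 lower, with the smallest values without A-MYB replicate 1 and without untreated replicate 1. Of the 3935 genes higher in Dox cells, 984 (25.0%) were also higher without Dox and 185 were lower, and these 984 are 34.5% of the genes higher without Dox. Of the 4161 genes lower in Dox cells, 1323 (31.8%) were also lower without it and 744 were higher, and the 1323 are 59.3% of those lower without Dox. Across all tested genes, which are not independent replicates, the log2 fold changes of both effects had a Pearson r of 0.32 and a Spearman rho of 0.25. The test of the difference between both effects passed for 2410 genes with a more positive effect in Dox cells (16.4%) and 3586 with a more negative one (24.5%), of which 894 (6.1%) and 406 (2.77%) by at least 2-fold. Of the 1638 genes at least 2-fold higher in Dox cells, 770 (47.0%) rose more there by this test, and of the 380 at least 2-fold lower, 269 (70.8%) fell more. Total-count scaling gave 3746 more positive and 2291 more negative.

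**Figure D5:**
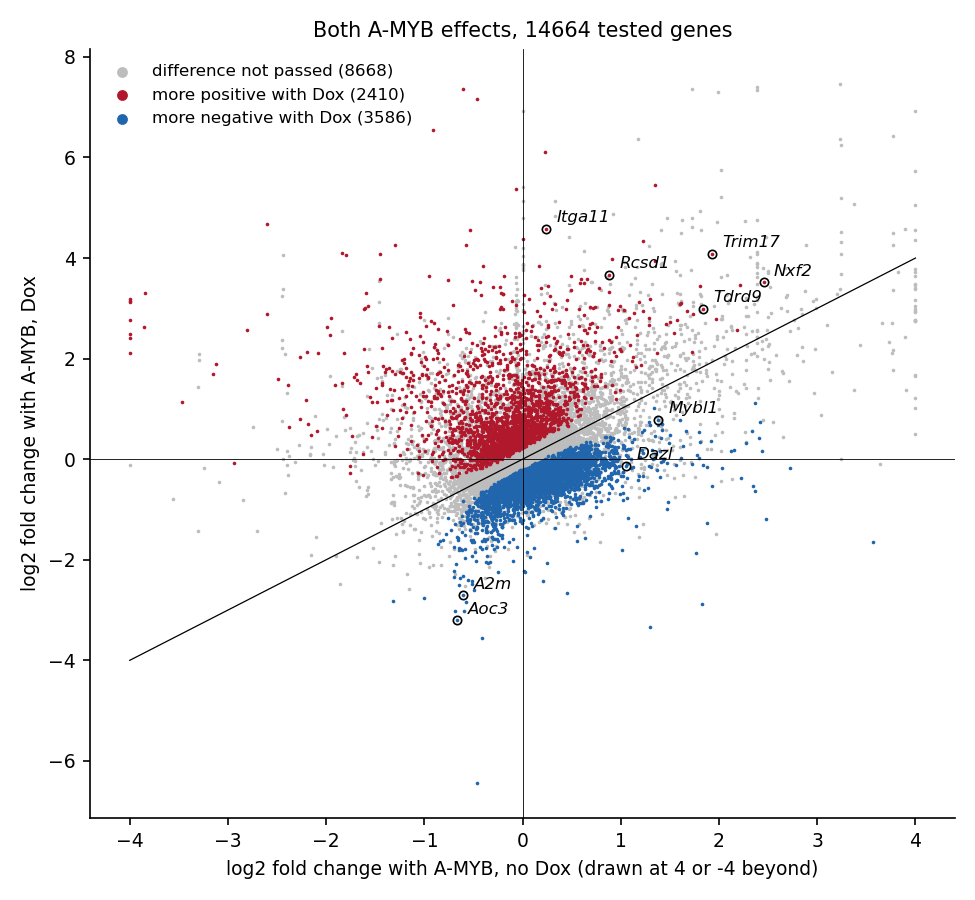
Log2 fold change with A-MYB in Dox cells (vertical) against that without Dox (horizontal) for 14664 tested genes; red and blue mark genes whose 2 effects differ (adjusted p under 0.05), and the diagonal is where they are equal. Horizontal values beyond 4 or -4 are drawn at 4 or -4. Itga11, Trim17, Tdrd9 and Nxf2 lie above the diagonal, and Aoc3, A2m and Mybl1 below it; folds at the edges rest on groups with few or 0 counts.

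By group, 22 of 24 glycolysis and hypoxia genes had a more negative effect with Dox. Without Dox 17 of them fell and their median was -0.34. Bnip3 measured 286 and 278 CPM in untreated cells and 291 and 279 CPM with A-MYB alone, a log2 fold change of 0.01, so that the difference was -2.23 (SE 0.09, adjusted p = 5.88e-15, edgeR). Naive pluripotency genes had 15 of 22 more negative, with 5 higher and 7 lower without Dox. Nanog stood at 1014 and 951 CPM without either treatment and at 928 and 972 CPM with A-MYB alone, and the difference was -1.02 (SE 0.08). Of the G2 and M genes 18 of 22 were more negative with Dox, and 16 of 24 silencing genes, against 24.5% of all tested genes. Histones differed upward in 9 of 17, against 16.4% of all tested genes. These list counts are under TMM only, and total-count scaling shifted the differences upward by a median of 0.17. They were not adjusted for level either. In the group of genes with the highest levels in untreated cells, the median effect was -0.25 with Dox and -0.05 without.

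Some germ cell genes rose with A-MYB whether or not the activator was induced. Taf7l, at 2.53 and 2.64 CPM in untreated cells, reached 7.20 and 7.55 CPM with A-MYB alone, a log2 fold change of 1.51, and its difference of 0.40 (SE 0.22) did not pass (adjusted p = 0.147, edgeR). Piwil2 had a log2 fold change of 0.61 without Dox, where it passed as well, and a difference of -0.03 (SE 0.14). Others responded more in Dox cells. Stag3 changed by 0.73 without Dox, Tdrd9 by 1.84 and Msh4 by 0.70, and the differences were 0.72 (adjusted p = 4.58e-06), 1.15 (adjusted p = 0.0228) and 2.01 (adjusted p = 0.00133, edgeR). Dazl and Sycp1 went the other way. Dazl rose without Dox, from 28.1 and 27.3 CPM to 60.9 and 54.3 CPM, a log2 fold change of 1.06, and the difference was -1.18 (adjusted p = 1.83e-07, edgeR). Sycp1 rose from 0.416 and 0.233 CPM to 2.12 and 1.44 CPM without Dox, and its difference was -1.68 (adjusted p = 0.0189, edgeR). Both genes were also higher with Dox alone than in untreated cells, at the Dox levels of 49.2 and 44.9 CPM for Dazl and 2.88 and 1.65 CPM for Sycp1.

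The series also holds H3K27ac, an acetylation mark of active enhancers and promoters, in pachytene spermatocytes of wild-type and A-myb mutant mice. Of the regions in each deposited list, 0.527% to 1.56% had their middle within 1 kb of a RefSeq start, which is low for this mark, and the lists were used only to describe genes. Within 10 kb of the 3515 regions in both wild-type lists and neither mutant list lay 482 tested genes, of which 148 (30.7%) rose with A-MYB in Dox cells and 90 fell. Near the 1615 regions in both mutant lists and neither wild-type list, 86 of 272 genes (31.6%) rose, and near the 10883 in all 4 lists 510 of 1727 (29.5%), against 26.8% of all tested genes. Distance was taken to the gene's span. With start sites, the planned measure, which 78.7% of tested genes had, the shares were 17.8% of 90 genes, 16.7% of 30 and 26.8% of 410. Tdrd9 was among the 6 largest rises near wild-type-only regions, with a region inside the gene at chr12:112009756-112010677 (mm10). The others were Veph1, Hdac9, Ryr3, Fam19a1 and Pard3b, with log2 fold changes of 3.09, 3.09, 2.74, 2.57 and 2.43.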

How the data were processed

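RNA-seq libraries were made with a stranded poly(A) kit, per the labels' protocols. The deposited values are raw read counts per gene symbol. Tools listed in the submitters' processing notes, without roles, are HISAT2 2.1.0, HTSeq, bcl2fastq 2.20.0, MACS 1.4.2 and Bowtie2 2.3.3.1, with mm10 as the build. No source used here gives the strand setting of the counting, so genes that overlap on opposite strands are uncertain. The 5 lines of reads assigned to no gene were left out of totals. Of the symbols, 23260 (99.3%) matched RefSeq's GRCm38.p6 annotation.

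The 8 ES cell libraries were fitted together by group with edgeR 4.0.16 (TMM, filterByExpr, robust quasi-likelihood test, R 4.3.3), with Benjamini-Hochberg adjustment over 14664 genes and a threshold of 0.05. The A-MYB effect with Dox, without Dox and their difference were contrasts of this fit. Standard errors were taken from the log2 fold change and its F value, and CPM used TMM library sizes. The fit was tested on simulated data. Replicates within a group differed by more than counting noise. The chi-square per degree of freedom was 14.5 for Dox + A-MYB, 5.59 for Dox, 8.29 for untreated and 8.44 for A-MYB cells. The fit shared the spread of each gene over all groups. Alternatives were total counts, DESeq2 size factors, 2 other filters, a replicate block, the 4 libraries alone, limma-voom 3.58.1, DESeq2 1.42.0 and each library left out.

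The members and the 38 gene lists were chosen with earlier results of these data known. Named genes were Mybl1 and the MYB list, the 15 largest rises and falls among genes past the threshold with mean log2 CPM over the 8 libraries not under 0 and groups that did not overlap, up to 5 genes of smallest p per list, the 8 largest differences each way, 8 genes at 0 counts with Dox and 6 genes near H3K27ac regions. Other list members named in the text were chosen after their values were seen. Some genes are not reported here.

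H3K27ac regions came from 1 deposited list per sample, from 1 male mouse each at 8 to 12 weeks, with the authors' fold enrichment (a ratio), tag counts and a score under a -log10 p header. Regions sharing at least 1 base counted as shared. Distance was taken to gene spans (99.6% of tested genes) in place of the planned start sites, which 78.7% had. For the same reason a planned comparison of promoter motifs between genes that rose and fell was void and was not run.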

Additional observations from a re-analysis of the deposited data

Results flagged for a closer look

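For 32 of the genes with the largest rises, falls or differences, the A-MYB effect with Dox differed from that without Dox by the test of the difference itself (edgeR, adjusted p under 0.05), and the values here are that difference on the log2 scale. Among the genes of largest rise it was 4.35 for Itga11, 3.15 for Cdhr2, 2.98 for Alox5, 2.93 for Trim72, 2.79 for Rcsd1, 2.59 for Hist1h2aa, 2.16 for Trim17 and 1.07 for Nxf2. Trim17 was also higher with A-MYB without Dox, from 0.866 and 0.894 CPM to 2.34 and 4.31 CPM, as did Nxf2, from 1.00 and 0.894 CPM to 5.04 and 5.41 CPM.

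Among the genes of largest fall the difference was -2.54 for Aoc3, -2.42 for Loxl2, -2.34 for Ndrg1, -2.26 for Ier3, -2.11 for Sfrp5, -2.09 for A2m, -1.97 for Fam184b, -1.91 for Slc16a3, -1.86 for Nxph4, -1.84 for Egln1, -1.76 for Cdc42ep2, -1.73 for Grin1, -1.64 for Vegfa and -1.51 for Ppp1r3g. Ndrg1 measured 130.1 and 142 CPM in untreated cells and 84.4 and 84.5 CPM with A-MYB alone.

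The largest positive differences outside those sets were 3.33 for Car5a, 3.32 for Gm10532, 3.28 for Tnnt2, 3.24 for Papln, 3.22 for Hhipl2 and 3.22 for Ppp1r16b. Tnnt2, the troponin T of heart muscle, stood at 1.30 and 1.44 CPM with Dox and 4.97 and 4.95 CPM with both. The largest negative ones were -3.00 for Mir703, -2.48 for Snord12, -2.47 for Xlr and -2.26 for Nfe2l3. Mir703 and Snord12 are small RNA genes, which poly(A) libraries are not made to count.

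Reads assigned to no gene lie outside the gene tests. Their share was 9.43% and 8.8% in the Dox + A-MYB libraries, above both Dox libraries, and which sequences they come from was not analysed here.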

How the results depend on the processing

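Total-count scaling left 2367 genes lower and 214 at least 2-fold lower with A-MYB in Dox cells, and for the difference of both effects gave 3746 more positive, 2291 more negative and 222 at least 2-fold lower. By construction it drops the TMM correction. It also turned Fn1 (a log2 fold change) from -0.15 to 0.0419, where it no longer passed (adjusted p = 0.554, edgeR), and of 237 named genes 219 kept their direction and side of the threshold, 12 lost the call and 5 gained it. A mean of at least 1 CPM left 1015 genes at least 2-fold higher, since fewer genes were tested. With each library left out in turn, 3142 to 3517 genes were higher and 3403 to 4037 lower in Dox cells, and 225 to 230 of the named genes kept their call. A lone library was then assumed to vary like the other groups. Without Dox, leaving out a library gave 1712 to 2515 higher, 226 to 337 at least 2-fold higher, 1303 to 1874 lower and 68 to 113 at least 2-fold lower, with the largest losses without untreated replicate 1 or 2 and A-MYB replicate 1. The Dox effect without A-MYB had 1462 to 1959 genes higher and 1212 to 1463 lower, lowest without untreated replicate 1 and Dox replicate 1. The cause was not tested. Start sites were the planned measure for the H3K27ac regions, and gene spans replaced them because not all tested genes had one. With start sites, 17.8%, 16.7% and 26.8% of genes were higher near wild-type-only, mutant-only and shared regions. With fold enrichment of at least 10, no wild-type-only region and too few mutant-only genes were left for a value.

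Replicate numbers did not pair the libraries (correlations of deviations -0.03 to 0.08), and a replicate block gave 3987 genes higher and 4255 lower. The motif window alternative was not run. Groups of 2 and few counts limit the folds of low genes.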

Other observations

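Nuclear noncoding RNAs, a list not described above, had 3 of 8 tested genes higher and none lower. Interferon response genes had 4 of 8 higher and 2 lower, and collagen and cross-linking genes 2 of 14 higher and 7 lower, against 26.8% higher and 28.4% lower over all genes. Genes of testis somatic cells had 2 of 10 higher, Cyp11a1 of steroid synthesis and Myh11 of smooth muscle, and none lower, trophoblast genes 2 higher and 4 lower of 10, mesoderm genes 3 and 3 of 11, neuroectoderm genes 2 and 3 of 8, fibroblast genes 1 and 3 of 8, and formative pluripotency genes 2 and 4 of 10. Of 61 tested snoRNA genes, 8 were lower and none higher. The MYB and MuvB list had 1 higher, Mybl1, and 3 lower of 9. Under total counts the higher and lower counts were 3 and 0 for nuclear noncoding RNAs, 4 and 2 for interferon, 4 and 7 for collagen, 3 and 0 for testis somatic, 2 and 3 for trophoblast, 4 and 2 for mesoderm, 3 and 2 for neuroectoderm, 2 and 2 for fibroblast, 2 and 2 for formative and 2 and 1 for the MYB and MuvB genes.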
